A study of Homo sapiens with 9 samples.

Results

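Histone genes were examined in Hep3B cells, a human liver cancer line, after 24 hours at 20% or 1% O2. Genes were taken by their symbol in the count table: the replication-dependent genes of the histone clusters (H1-1 to H1-6, H2AC, H2BC, H3C and H4C), all other symbols that begin with H1-, and the variants H2AX, H2AZ1, H2AZ2, H3-3A and H3-3B. Of 92 matching symbols, 16 were dropped as pseudogenes and 30 had counts summing to under 10 over the 9 libraries, 12 of them at 0 in every library. The 45 genes described here, of 22672 genes tested and 60683 listed, comprised 38 clustered genes, 6 polyadenylated variants and the antisense RNA H1-10-AS1. By family, 2 of 6 clustered H1 symbols passed the count minimum, as did 8 of 16 for H2A, 12 of 17 for H2B, 7 of 13 for H3 and 9 of 14 for H4. Because a gene high in only a single group can pass this minimum through that group, the counts and medians below describe the genes that passed and not all histone genes.

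The 3 groups were vehicle (DMSO) at 20% O2, vehicle at 1% O2, and 32-134D at 1% O2, each with 3 replicates that the labels call biological. 32-134D is a small molecule that the study developed as an inhibitor of the hypoxia-inducible factors HIF-1 and HIF-2, given at 5 µM according to its methods, since the labels state no dose. The design asks how histone transcripts differed at low oxygen and how they differed when the inhibitor was present at low oxygen. Both questions use the same vehicle libraries at 1% O2, so the 2 sets of differences are not independent. Total counts ranged from 6013980 to 40549699 per library, the lowest in replicate 2 of vehicle at 20% O2. All 12 hepatocyte markers checked were expressed, summing to between 15034 and 25590 CPM (counts scaled to a fixed library total) in a library. Of 12 markers of other cell types, 4 passed the count minimum and CD3E and ACTA2 were at 0. The 12 together summed to between 8.32 and 9.48 CPM in vehicle at 20% O2, 3.62 and 5.01 in vehicle at 1% O2, and 7.11 and 12.8 with 32-134D. Of these, PECAM1 and COL1A1 were called lower at 1% O2 and higher with 32-134D, and the part of other cells in the results below was not tested.

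Histones are the proteins around which DNA is wrapped: H2A, H2B, H3 and H4 form the core of the nucleosome, and H1 binds the DNA that links nucleosomes. The clustered genes are transcribed mainly in S phase, when new DNA is packed, and most of their mRNAs end in a conserved stem-loop in place of a poly(A) tail. The stem-loop binds SLBP, which is needed for 3′ end formation, and is also where degradation begins when DNA synthesis stops. The variants H1-10, H2AZ1, H2AZ2, H3-3A and H3-3B come from genes outside the clusters with ordinary polyadenylated mRNAs and are made throughout the cell cycle. H2AX, the variant phosphorylated at DNA breaks, gives both kinds of mRNA and was counted here among the polyadenylated variants. Whether the libraries were made from poly(A)-selected or rRNA-depleted RNA is not given in the sources used here. The level of a clustered gene is thus not a measure of all its mRNA. A difference between libraries may lie only in the part of the mRNA that was recovered.

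The stem-loop was looked for as 16 bases, GGNNCTT followed by N, T and N and then AGNNCC, where N is any base, in the annotated transcripts (GENCODE version 29, GRCh38). It was found in 20 of the 36 clustered genes with an annotation and, among the polyadenylated variants, in H2AX. The forms in 3 genes whose differences were among the best measured and in H2AX are shown, with the paired stem in capitals and the loop in lower case.

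H2AC6: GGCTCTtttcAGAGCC
H2BC5: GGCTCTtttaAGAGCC
H2AC11: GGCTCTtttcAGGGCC
H2AX: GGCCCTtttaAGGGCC

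The form of H2AC6 was shared by 9 clustered genes, among them H2BC6, H2BC15, H2BC21 and H3C10, and that of H2BC5 by 4, H2BC4 among them. The annotated transcripts with a stem-loop went on past it by up to 39 bases in H2BC5, 1128 in H2AC6, 1729 in H2BC21, 1761 in H2AC11 and 1044 in H2AX. Some genes, H2AC6, H2BC4, H2BC5 and H2BC15 among them, also had an annotated transcript in which none was found. In H2BC5 this was the longest transcript, of 789 bases. The longer models include sequence beyond the usual histone 3′ end. Reads in it would be counted with the gene if the annotation used for counting holds the same models, which was not checked. Of the 16 annotated clustered genes in which none was found, 13, H1-2 and H2BC12 among them, had a summed exon length that was a multiple of 3 and at most 642 bases, as in models that hold little beyond the coding sequence, so a stem-loop may lie outside what was searched.

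The promoters of 2 genes that were lower and 2 that were higher at 1% O2 are given next, as the 250 bases before the RefSeq start (GRCh38.p14), each read in the direction of transcription. Capitals mark 4 motifs on either strand: the core of the HIF binding site (ACGTG or GCGTG), the CCAAT box (CCAAT), the TATA box (TATAAA) and the octamer (ATTTGCAT) that is known from H2B promoters and bound by POU2F1. H2AC6, on chr6:26123922-26124171 (+), stands back to back with H2BC4, and H2AC11, on chr6:27132793-27133042 (+), with H2BC11, so that each window lies between 2 starts. H1-10 lies on chr3:129316287-129316536 (−) and H3-3B on chr17:75779780-75780029 (−). The H3-3B window lies within the longer GENCODE span of that gene, which reaches further upstream than the RefSeq start used.

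H2AC6: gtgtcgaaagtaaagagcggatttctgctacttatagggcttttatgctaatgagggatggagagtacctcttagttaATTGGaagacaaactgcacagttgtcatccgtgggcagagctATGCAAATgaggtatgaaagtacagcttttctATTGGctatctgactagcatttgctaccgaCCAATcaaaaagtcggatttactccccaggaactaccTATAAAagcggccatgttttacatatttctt
H2AC11: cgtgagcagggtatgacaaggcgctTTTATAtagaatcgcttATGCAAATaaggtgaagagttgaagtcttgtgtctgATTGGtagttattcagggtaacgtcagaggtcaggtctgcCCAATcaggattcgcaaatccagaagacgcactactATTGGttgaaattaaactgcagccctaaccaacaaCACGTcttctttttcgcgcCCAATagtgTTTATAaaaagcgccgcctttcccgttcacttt
H1-10: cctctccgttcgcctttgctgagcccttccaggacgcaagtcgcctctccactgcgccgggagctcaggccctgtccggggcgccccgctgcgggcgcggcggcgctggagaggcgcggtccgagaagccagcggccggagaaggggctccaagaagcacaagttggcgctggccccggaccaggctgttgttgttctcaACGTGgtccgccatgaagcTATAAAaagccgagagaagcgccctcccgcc
H3-3B: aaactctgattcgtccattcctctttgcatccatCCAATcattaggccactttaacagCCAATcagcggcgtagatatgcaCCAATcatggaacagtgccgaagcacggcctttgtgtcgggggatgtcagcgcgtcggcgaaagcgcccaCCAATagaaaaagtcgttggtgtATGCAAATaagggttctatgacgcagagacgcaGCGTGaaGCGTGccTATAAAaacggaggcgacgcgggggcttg

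The H2AC6 window held a TATA box that begins 31 bases before the start, CCAAT boxes at 68, 98 and 172 bases and an octamer at 130 bases, and no HIF core. The H2AC11 window held a HIF core at 61 bases before the start, the H1-10 window at 50 bases and the H3-3B window at 36 and 43 bases. A window was available for 40 of the 45 genes. The HIF core was present in 9 of 34 clustered genes and in 6 of 6 polyadenylated variants, against 43.1% of 27305 genes with a window. The octamer was present in 16 of 34 clustered genes, 10 of 12 of the H2B and 6 of 7 of the H2A family and none of the H1, H3 or H4 genes, against 1.66% of all. The CCAAT box was present in 28 of 34 clustered genes against 33.0% of all, and the TATA box in 21 of 34 against 11.1%. Some H2A and H2B windows are mostly the same DNA read from opposite strands, as for H2AC6 with H2BC4 and H2AC11 with H2BC11. A match there was counted for both genes, so these counts of clustered genes are not all of separate sites. These are matches to letters in a fixed window and no factor's binding was measured.

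**Figure D1:**
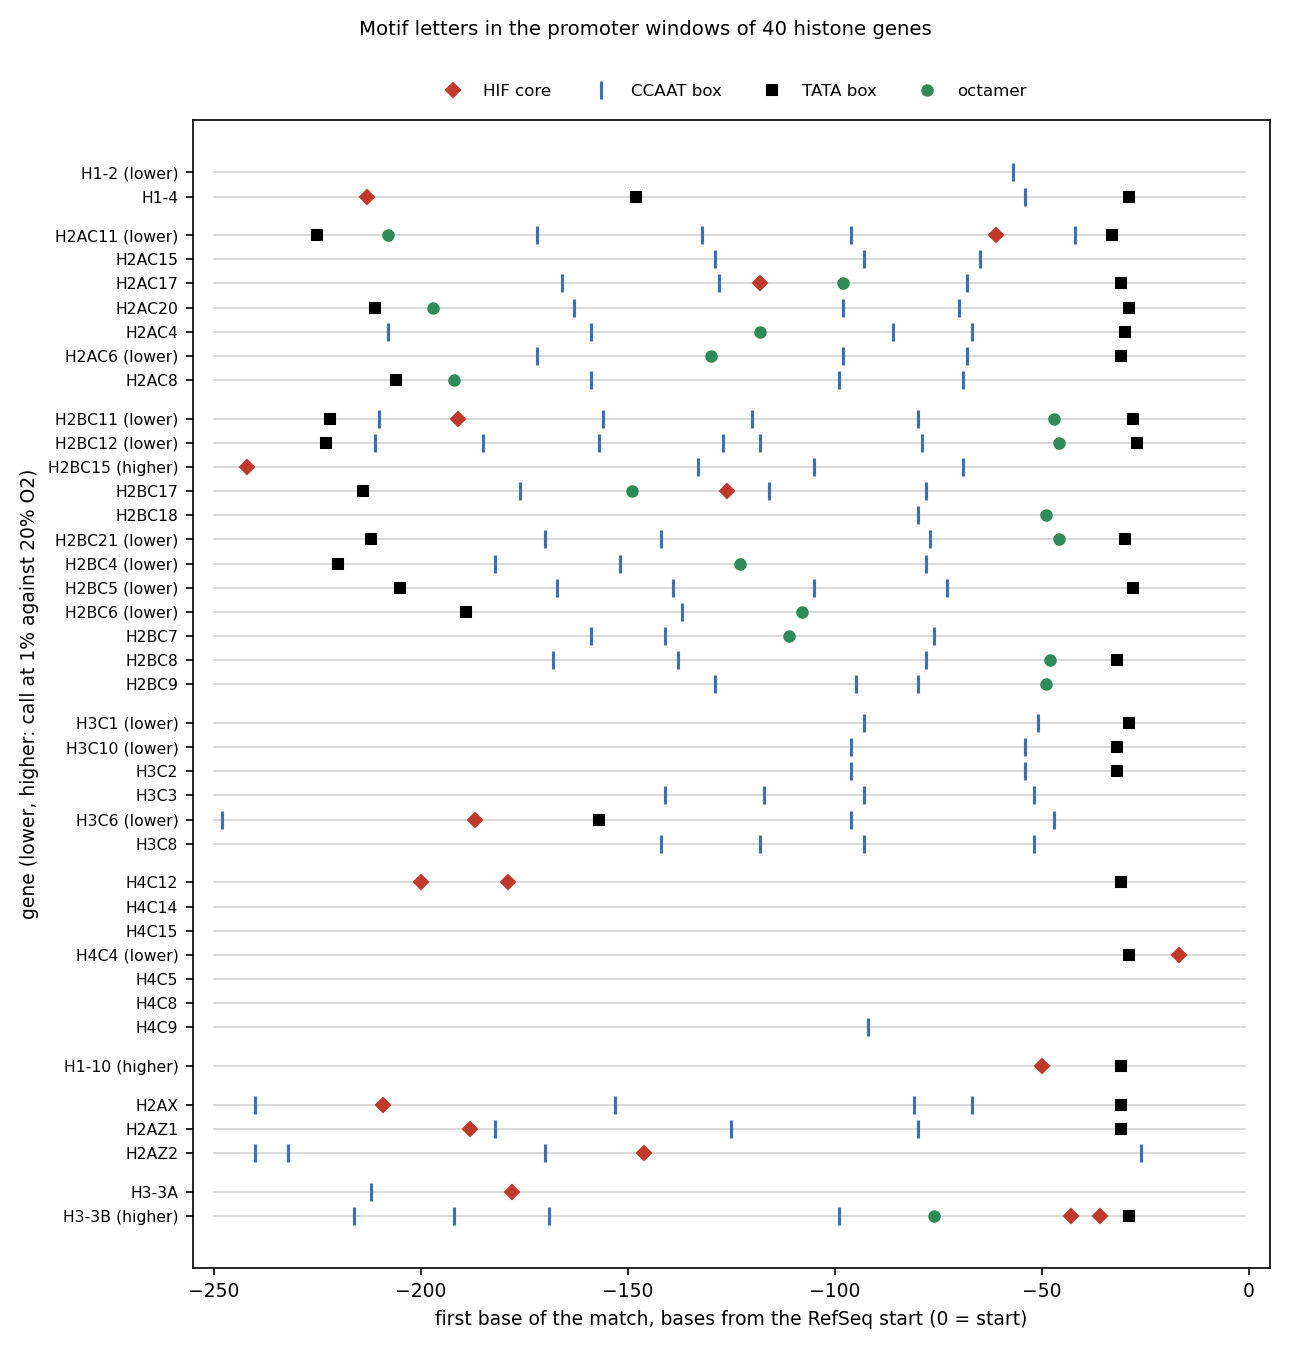
Positions of the 4 motifs in the 250 bases before the RefSeq start of 40 histone genes, with the first base of each match on the x axis (bases from the start) and genes grouped by class and family on the y axis. Octamer matches appear in 16 clustered genes, all of the H2A or H2B family, while all 6 polyadenylated variants with a window have a HIF core. Some H2A and H2B genes share most of a window, so a match can appear for both.

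At 1% O2, 13 of the 38 clustered genes were called lower than at 20% O2 and 1 higher, where a call needed an FDR below 0.05 and a fold change above 1.5 in edgeR's quasi-likelihood test, with Benjamini-Hochberg adjustment over all genes tested. Over all 22672 genes, 20.3% were called lower and 19.5% higher. The clustered genes lower at 1% O2 were H1-2, the H2A genes H2AC6 and H2AC11, the H2B genes H2BC4, H2BC5, H2BC6, H2BC11, H2BC12 and H2BC21, the H3 genes H3C1, H3C6 and H3C10, and H4C4. For each of these 13 the libraries of both groups did not overlap. This is no separate support, since the genes were picked by their calls, and the share over all genes is not given here. The median log2 fold change was −1.14 for the 38 clustered genes, 33 of which lay below 0, against 0.00 for all genes tested. Among the 6 polyadenylated variants, 2 were called higher, H1-10 and H3-3B, and 0 lower. Their median log2 fold change was 0.13, which turned to −0.0862 with total library size as the scale and to −0.12 with a trend over length and GC content removed.

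The clustered genes summed to 105, 101 and 94.1 CPM in the libraries of vehicle at 20% O2, to 33.5, 46.1 and 46.8 in those of vehicle at 1% O2, and to 79.1, 81.8 and 43.4 in those of 32-134D at 1% O2. CPM here is scaled by edgeR's TMM factors. Every library at 20% O2 lay above every library at 1% O2, and replicate 3 of 32-134D lay within the range of vehicle at 1% O2. The polyadenylated variants summed to 1499 ± 83.1 CPM (SD, n = 3) in vehicle at 20% O2, 1909 ± 65.8 in vehicle at 1% O2 and 1494 ± 70.7 with 32-134D. The clustered genes thus had 6.69% ± 0.298 of the counts of the variants at 20% O2, 2.20% ± 0.323 in vehicle at 1% O2 and 4.52% ± 1.26 with 32-134D. This ratio does not depend on the scaling of the libraries. It was 3.04 times as high in vehicle at 20% O2 as in vehicle at 1% O2, and 2.06 times as high with 32-134D as in vehicle at 1% O2. H2AC6, H2BC12, H1-2 and H2BC5 held from 64.1% to 77.0% of the clustered counts in a library, so the sums mostly follow these 4 genes. Since whole cultures were lysed, fewer cells in S phase and less histone mRNA per cell cannot be told apart. Since the RNA selection is not given, a difference in all clustered mRNA and a difference in only its polyadenylated part cannot be told apart either.

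**Figure D2:**
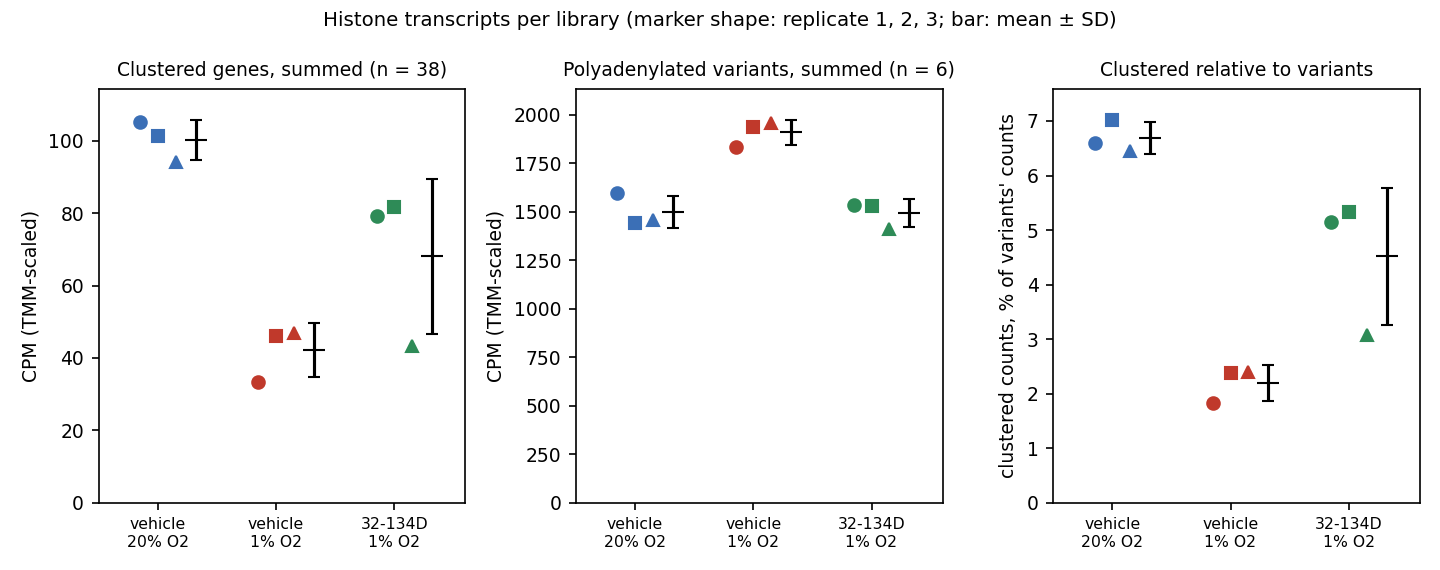
Summed TMM-scaled CPM of the 38 clustered genes (left) and the 6 polyadenylated variants (middle), and the clustered counts as a percentage of the variants' counts (right), in each of 9 libraries, with the mean ± SD of each group beside its points. The clustered sum is 94.1 to 105 in vehicle at 20% O2 and 33.5 to 46.8 in vehicle at 1% O2, and replicate 3 of 32-134D, a triangle at 43.4, lies apart from the other 2 of its group.

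Among the H2A genes, H2AC6 (ENSG00000180573, chr6:26124145-26139116, +) had the most counts of any clustered gene. It measured 31.1, 26.7 and 28.0 CPM in vehicle at 20% O2, 5.75, 7.59 and 7.54 in vehicle at 1% O2, and 23.3, 21.6 and 11.8 with 32-134D. No library of vehicle at 1% O2 reached the lowest of either other group. Its level was 4.14-fold higher at 20% than at 1% O2 (log2 fold change −2.05 at 1% O2, SE 0.21, FDR 8.3e-07 in edgeR). With 32-134D it was 2.75-fold higher than in vehicle at 1% O2 (log2 fold change 1.46, SE 0.20, FDR 3.1e-05). H2AC11 (ENSG00000196787, chr6:27133042-27135291, +) measured 2.29, 2.83 and 2.43 CPM, then 0.530, 0.613 and 0.415, then 1.84, 2.32 and 0.915 in the same order of groups. Its groups at 1% O2 did not overlap either, with log2 fold changes of −2.26 (FDR 3.9e-05) at 1% O2 and 1.74 (FDR 0.00042) with 32-134D. H2AC20 and H2AC8 overlapped between all groups and gave log2 fold changes of −0.42 and −0.40 at 1% O2, short of a call.

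The H2B family had the most genes called. H2BC5 (ENSG00000158373, chr6:26158146-26171349, +) measured 12.3, 14.1 and 11.6 CPM in vehicle at 20% O2, 2.57, 4.05 and 5.08 in vehicle at 1% O2, and 9.16, 10.5 and 5.21 with 32-134D. Its lowest library with 32-134D lay just above the highest of vehicle at 1% O2, and the log2 fold changes were −1.70 (FDR 4.7e-05) and 1.12 (FDR 0.0018). H2BC12 (chr6:27146418-27146798, −) measured 19.1, 20.6 and 16.1 CPM, then 7.66, 10.1 and 9.96, then 14.2, 14.9 and 6.77. It gave a log2 fold change of −0.997 at 1% O2 (FDR 0.0018), while 32-134D overlapped vehicle at 1% O2 and did not pass the test (log2 fold change 0.39, 95% interval −0.05 to 0.83, FDR 0.17). H2BC6, H2BC21, H2BC11 and H2BC4 had log2 fold changes of −2.02, −1.48, −1.42 and −1.24 at 1% O2, and of 1.06, 0.87, 0.77 and 0.58 with 32-134D, none of the latter called, although DESeq2 called H2BC21 higher with 32-134D (FDR 0.043 against 0.054 in edgeR). H2BC11 missed the FDR threshold at 1% O2 without replicate 3 of vehicle at 20% O2 (FDR 0.0501) or replicate 1 of vehicle at 1% O2 (FDR 0.0661).

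H2BC15 (ENSG00000233822) went the other way. It measured 1.36, 0.942 and 1.70 CPM in vehicle at 20% O2, 2.52, 2.88 and 3.01 in vehicle at 1% O2, and 1.67, 1.95 and 1.46 with 32-134D. Vehicle at 1% O2 lay above both other groups without overlap, with log2 fold changes of 0.94 (FDR 0.0030) at 1% O2 and −0.71 (FDR 0.011) with 32-134D, the latter lost without replicate 3 of vehicle at 1% O2 (FDR 0.0739) or replicate 1 of 32-134D (FDR 0.0553). Its annotated model runs over chr6:27837760-27865798, with 5477 bases of exon, and spans H2AC15 on the opposite strand and H2AC16 on the same strand. Whether counting used strand is not given in the sources used here, so reads of these genes could be split or shared, and the value of H2BC15 is uncertain in that respect.

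Of the linker histones in the clusters, H1-2 (ENSG00000187837, chr6:26055787-26056428, −) measured 18.4, 13.7 and 14.4 CPM in vehicle at 20% O2, 5.49, 8.53 and 8.23 in vehicle at 1% O2, and 12.9, 12.8 and 7.59 with 32-134D. The first 2 groups did not overlap and the last 2 did. The log2 fold changes were −1.09 (FDR 0.00048) at 1% O2 and 0.61 (FDR 0.025) with 32-134D. The second was no longer called without replicate 1 of vehicle at 1% O2 (FDR 0.138) or without replicate 1 or 2 of 32-134D (FDR 0.0600 and 0.0907). H1-4, with 42 counts in all, was between 0 and 0.502 CPM and overlapped in all comparisons.

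The H3 and H4 genes were measured on fewer reads. H3C6 and H3C10 had log2 fold changes of −1.20 (FDR 0.011) and −1.49 (FDR 0.022) at 1% O2, the first short of the threshold without replicate 1 of vehicle at 1% O2 (FDR 0.0534), the second without replicate 1 of vehicle at 20% O2 or replicate 3 of vehicle at 1% O2 (FDR 0.0829 and 0.0732). H3C1 had 4, 1 and 15 counts in vehicle at 20% O2 and 3, 1 and 4 in vehicle at 1% O2 (log2 fold change −1.90, FDR 0.024). Its difference rests on these few reads: it was no longer called without replicate 3 of vehicle at 20% O2 (FDR 0.238) or replicate 1 or 2 of vehicle at 1% O2 (FDR 0.072 and 0.0638), and turned to 0.11 when all libraries were thinned to the depth of the smallest. DESeq2 did not call H3C1 at 1% O2 either (FDR 0.065). H4C4 had 4, 3 and 9 counts in vehicle at 20% O2 and 2, 0 and 0 in vehicle at 1% O2, a ratio of 13.2 per scaled library size (exact 95% interval 3.11 to 118, for counting error only), with an FDR of 0.0039. H4C3, the H4 gene with the most counts, measured 2.08, 1.57 and 1.58 CPM, then 2.36, 2.26 and 2.39, then 1.73, 2.15 and 1.78. Vehicle at 1% O2 lay above both other groups, but neither difference passed the test (log2 fold changes 0.43, FDR 0.11, and −0.31, FDR 0.21). H4C8 and H4C5 gave log2 fold changes of −0.75 and 0.04 at 1% O2 and were not called. By family, 1 of 2 clustered H1 genes, 2 of 8 H2A, 6 of 12 H2B, 3 of 7 H3 and 1 of 9 H4 genes were called lower at 1% O2, against 20.3% of all genes tested, and the difference between families was not tested.

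**Figure D3:**
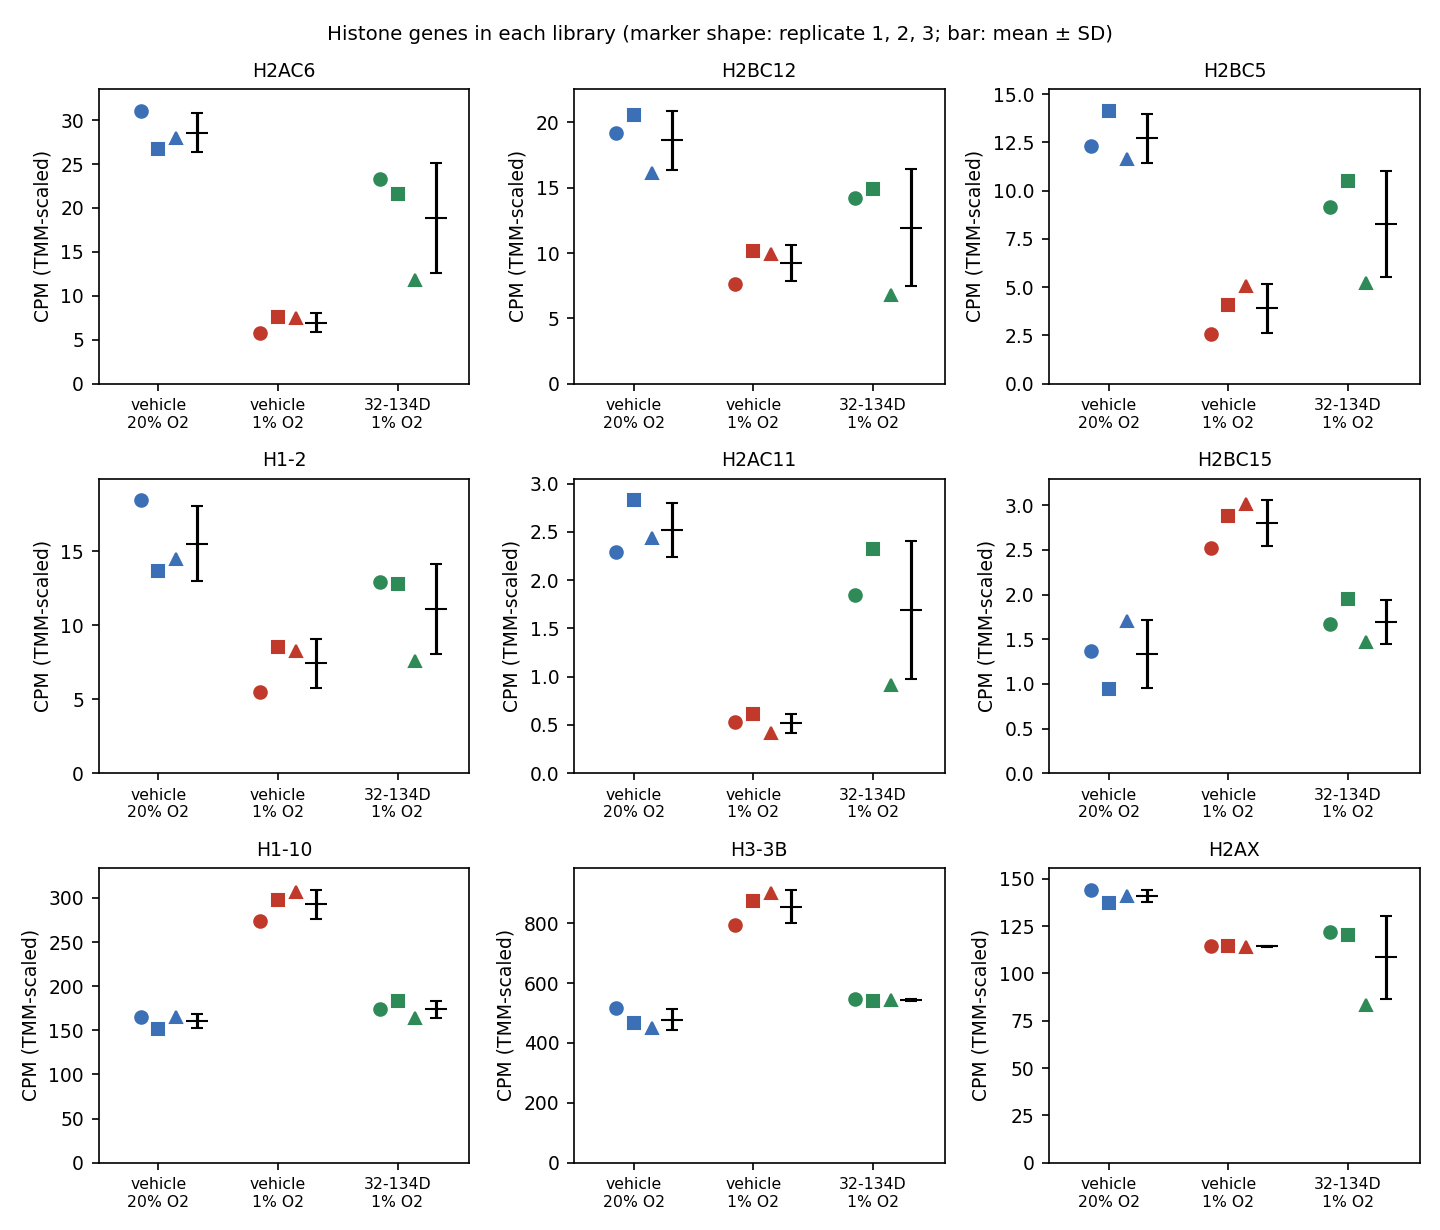
TMM-scaled CPM of 9 histone genes in each library (points, shaped by replicate), with the mean ± SD of each group of 3. H2AC6, H2BC12, H2BC5, H1-2 and H2AC11 are lowest in vehicle at 1% O2, H2BC15, H1-10 and H3-3B are highest there, and replicate 3 of 32-134D (triangle) is the lowest of its group in every panel except H3-3B.

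Calls were made mainly among the clustered genes with more reads. Of the 17 clustered genes with 100 or more counts over the 9 libraries, 11 were called lower and 1 higher at 1% O2, with a median log2 fold change of −1.20. Of the 21 with under 100 counts, 2 were called lower, H3C1 and H4C4, with a median of −1.03. The median SE of the log2 fold change was 0.85 in the genes with under 100 counts and 0.36 in the others, and the part of depth in the number of calls was not tested. H2AC17, H4C12, H4C14 and H4C15 share most of their sequence with another gene of the set, and 0 of these 4 were called. The clustered genes lie mainly in the large cluster on chromosome 6, with 31 of the 36 annotated there and 5 on chromosome 1, H2BC21 and H2AC20 among them.

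**Figure D4:**
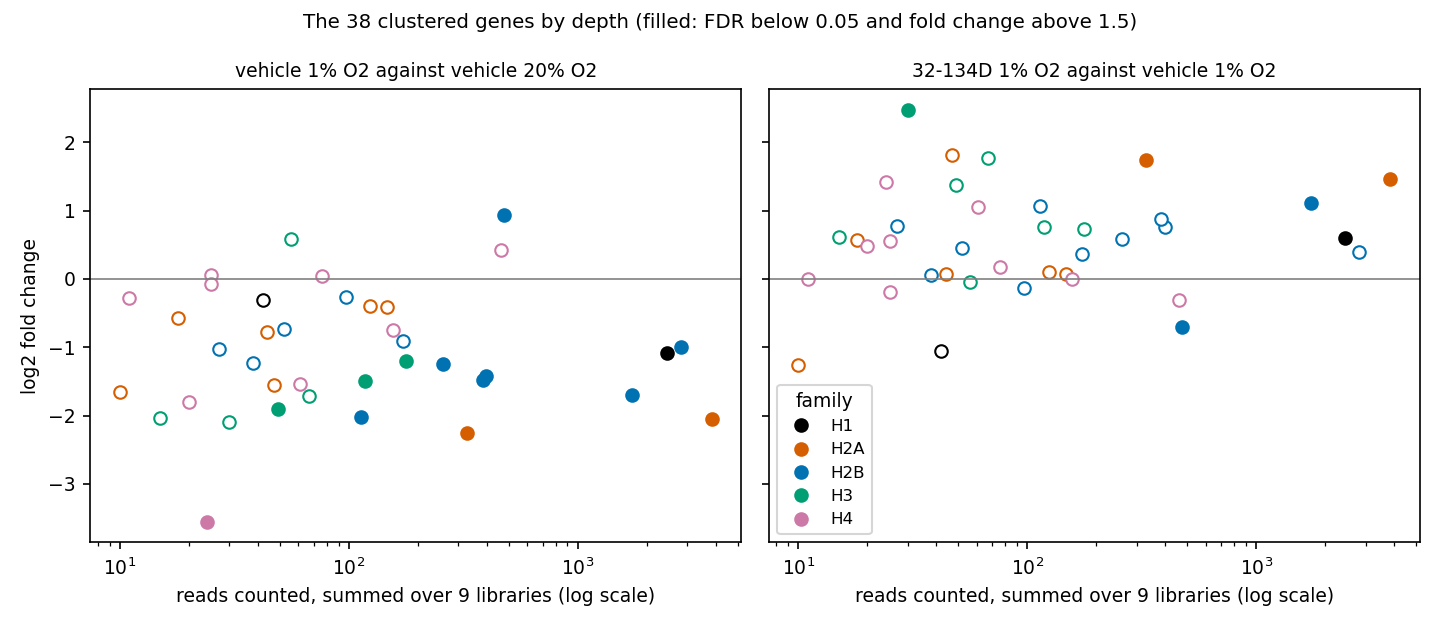
Log2 fold change of the 38 clustered genes against their reads summed over 9 libraries (log scale), colored by family, for vehicle at 1% against 20% O2 (left) and 32-134D against vehicle at 1% O2 (right). On the left 33 genes lie below 0 and on the right 29 above 0, and the points spread more widely at under 100 reads.

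Among the polyadenylated variants, H1-10 (ENSG00000184897, chr3:129314771-129316277, −), a linker histone also known as H1X, measured 166, 151 and 165 CPM in vehicle at 20% O2, 274, 297 and 306 in vehicle at 1% O2, and 175, 183 and 164 with 32-134D. Vehicle at 1% O2 stood above both other groups, which overlapped. Its log2 fold changes were 0.86 (SE 0.07, FDR 1.4e-07) at 1% O2 and −0.75 (SE 0.07, FDR 1.0e-06) with 32-134D. H1-10 overlaps H1-10-AS1 on the other strand, which measured between 3.98 and 6.28 CPM over the 9 libraries and gave log2 fold changes of −0.01 and −0.30, neither called. H3-3B (ENSG00000132475, chr17:75776434-75785893, −), which with H3-3A encodes the replacement histone H3.3, measured 518, 468 and 449 CPM, then 793, 874 and 900, then 547, 540 and 543. Its log2 fold changes were 0.84 (SE 0.07, FDR 2.2e-07) and −0.65 (SE 0.07, FDR 4.6e-06), the second under the fold threshold without replicate 3 of vehicle at 1% O2 (−0.55). The model of H3-3B overlaps UNK on the other strand, which had 11753 counts in all. Reads there could be shared if counting did not use strand. H3-3A measured 33.7, 29.8 and 27.2 CPM, then 38.2, 41.4 and 42.3, then 32.4, 31.2 and 27.9, with log2 fold changes of 0.43 (FDR 0.0017) and −0.41 (FDR 0.0023). It thus passed the FDR but not the fold threshold. With a per-library trend over transcript length and GC content removed, H3-3A was at 0.0483 at 1% O2, and H1-10 and H3-3B were at 0.91 and 0.82. Scaled by total library size instead of TMM, H1-10 and H3-3B were still called at 1% O2 (0.65 and 0.62) but not with 32-134D (−0.56 and −0.47).

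The H2A variants lay below 0 at 1% O2. H2AX measured 144, 137 and 141 CPM in vehicle at 20% O2, 114, 114 and 114 in vehicle at 1% O2, and 122, 120 and 83.3 with 32-134D. It gave a log2 fold change of −0.30 (FDR 0.034) at 1% O2 and of −0.07 (95% interval −0.29 to 0.14) with 32-134D. H2AZ2 and H2AZ1, which encode forms of H2A.Z, the variant at gene starts, gave −0.17 (FDR 0.042) and −0.20 (FDR 0.053) at 1% O2, and 0.11 and 0.02 with 32-134D, none past the fold threshold. Scaled by total library size, H2AZ1 and H2AZ2 were at −0.42 and −0.39 at 1% O2, and H2AX with 32-134D turned to 0.11. All 6 variants passed the unadjusted threshold of 0.05 in edgeR at 1% O2, as did 13240 of all 22672 genes tested. Of the variants, 3 lay above 0 and 3 below, so they did not move as a single group.

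Levels per kilobase of annotated exon ordered the variants in vehicle at 20% O2 as H2AZ1 at 127 ± 13 CPM per kb, H1-10 at 107 ± 5.44, H2AX at 87.2 ± 2.07, H2AZ2 at 83.8 ± 3.10, H3-3B at 77.9 ± 5.80 and H3-3A at 9.61 ± 1.05 (SD, n = 3). The libraries of H2AX overlapped those of H2AZ2, and the libraries of H2AZ2 those of H3-3B, while the other neighbours in this order did not overlap. In vehicle at 1% O2, H1-10 stood first at 194 ± 10.9 CPM per kb, followed by H3-3B at 139 ± 9.08. With 32-134D, H1-10 at 115 ± 6.41 and H2AZ1 at 112 ± 7.32 CPM per kb overlapped, as did H2AZ2 and H2AX. H3-3B yielded the most counts of any histone gene, 146646 in all, over 6134 bases of exon. This length joins the exons of all annotated transcripts, and the longest single transcript of H3-3B has 2787 bases. For H2AZ1 the joined length is 2303 bases and the longest transcript 1880. The order of the variants rests on the joined length and could differ with another.

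With 32-134D at 1% O2, 5 of the 38 clustered genes were called higher than in vehicle at 1% O2 and 1 lower, against 16.2% and 13.7% of all genes tested. The higher genes were H2AC6, H2AC11, H2BC5, H1-2 and H3C2, and the lower was H2BC15. The count higher is thus near the share over all genes. The median log2 fold change of the clustered genes was 0.57, with 29 of 38 above 0, against −0.01 for all genes tested. H3C2 had 0, 2 and 1 counts in vehicle at 1% O2 and 5, 11 and 3 with 32-134D, a ratio of 6.41 per scaled library size (exact 95% interval 1.89 to 33.8, for counting error only, FDR 0.039), and was no longer called when replicate 1 or 3 of vehicle (FDR 0.151 and 0.0851) or replicate 2 of 32-134D (FDR 0.185) was left out. DESeq2 did not call H3C2 with 32-134D either (FDR 0.063). Of the 6 polyadenylated variants, 2 were called lower, H1-10 and H3-3B, and 0 higher, with a median of −0.24. Side by side, the 13 clustered genes lower at 1% O2 had log2 fold changes with 32-134D from 0.39 in H2BC12 to 1.74 in H2AC11. Both comparisons contain the same 3 vehicle libraries at 1% O2, so part of any opposition between them is built in.

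Replicate 3 of 32-134D stood apart from its group, and not only in histone genes. Chi-square per degree of freedom, a measure of difference beyond counting noise, was 36.4 against replicate 1 and 32.5 against replicate 2. Between replicates 1 and 2 it was 1.998. Replicate 3 was the lowest of its 3 libraries in 24 of the 38 clustered genes and in 10 of the 13 lower at 1% O2. The share over all genes is not given here, so these counts do not set the histone genes apart. The clustered sum of replicate 3 was 43.4 CPM, against 79.1 and 81.8 in the other 2. Replicate 3 was also low in H2AX, at 83.3 CPM, but not in H3-3B. The hepatocyte markers summed to 15034 CPM in it, the lowest of all libraries. Without it, 10 clustered genes were called higher with 32-134D, now also H2BC6, H2BC11, H2BC12, H2BC21 and H3C3, and the clustered counts relative to the variants were 2.38 times those of vehicle at 1% O2. Without replicate 1 of vehicle at 1% O2, which had the lowest clustered sum of its group, 3 were called, and without replicate 3 of that group 8. Replicate 3 was kept in all other values, as the labels give no reason to drop it.

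**Figure D5:**
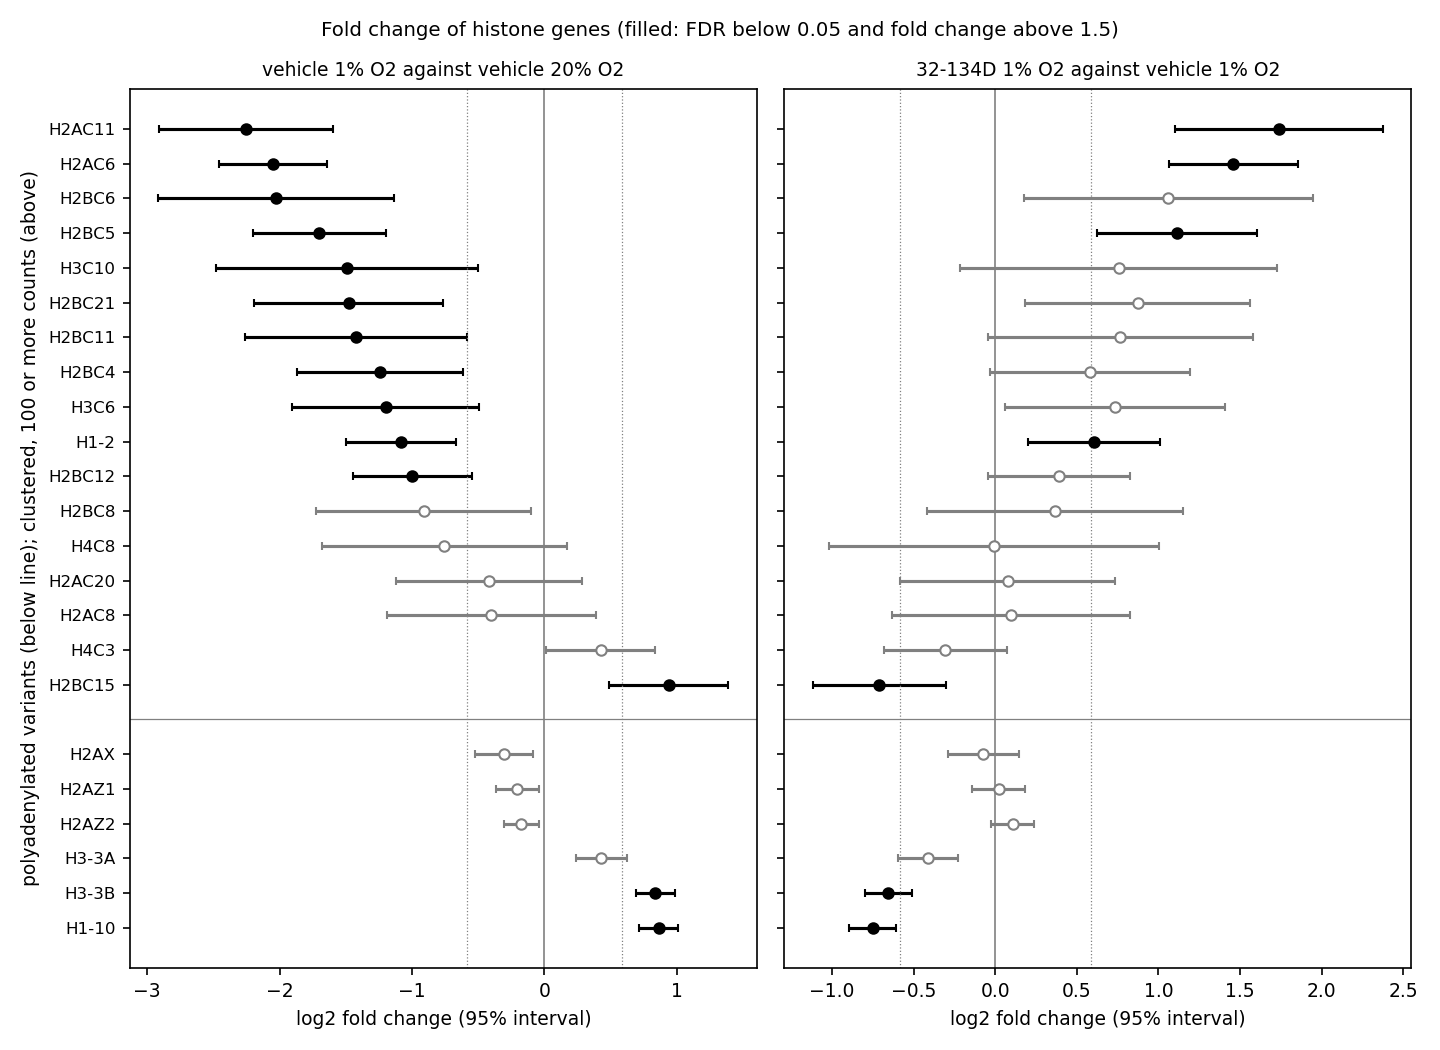
Log2 fold changes from edgeR for the 17 clustered genes with 100 or more counts (above the line) and the 6 polyadenylated variants (below it). The left panel shows 1% against 20% O2 in vehicle, and the right panel 32-134D against vehicle at 1% O2. Bars are approximate 95% intervals made from each SE, and dotted lines mark a fold change of 1.5. On the left 11 clustered genes are called lower and H2BC15 higher, and on the right H2AC11, H2AC6, H2BC5 and H1-2 are called higher and H2BC15 lower.

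Between 32-134D at 1% O2 and vehicle at 20% O2, 0 of the 45 histone genes were called in edgeR, where 3.0% of all genes were called higher and 0.516% lower. Unadjusted p values in edgeR were under 0.05 for 8 of the 38 clustered genes and 3 variants, against 5584 of all 22672 genes tested. DESeq2 called H2AC6 and H2BC12 lower. The clustered genes had a median log2 fold change of −0.50, with 30 of 38 below 0, and H2AC6, H2BC5 and H2BC12 gave −0.59, −0.58 and −0.61 (FDR 0.070, 0.15 and 0.11). Their 95% intervals, −0.97 to −0.21, −1.06 to −0.11 and −1.05 to −0.16, include differences above and below the fold threshold, so the 2 groups were not shown to be alike. Of the variants, H1-10 and H3-3B gave 0.11 (95% interval −0.03 to 0.26) and 0.19 (0.04 to 0.33), and H2AX −0.38 (FDR 0.047).

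Genes for making histone mRNA were counted in the same libraries. Of 19 genes for histone gene transcription and 3′ end formation, 8 were called higher and 2 lower at 1% O2, against 19.5% and 20.3% of all genes tested, with a median log2 fold change of 0.54. SLBP, which binds the stem-loop, measured 143, 123 and 128 CPM in vehicle at 20% O2, 266, 262 and 263 in vehicle at 1% O2, and 172, 169 and 150 with 32-134D. All libraries of vehicle at 1% O2 lay above those of both other groups, with log2 fold changes of 1.01 (FDR 4.7e-08) and −0.69 (FDR 3.6e-06). HINFP, which activates H4 genes, and ZNF473, part of the 3′ end processing machinery, gave 1.61 and 1.60 at 1% O2, and −0.99 and −0.86 with 32-134D. NPAT, the coactivator of clustered histone transcription, gave 0.73 (FDR 2.2e-05) and −0.27 (FDR 0.032). The 2 lower genes were POU2F1, the octamer-binding factor, at −0.75 (FDR 2.5e-05) and 0.67 (FDR 8.8e-05), and CCNE1, a cyclin of S phase entry, at −0.61 (FDR 2.9e-05) and 0.41 (FDR 0.00094). With 32-134D, 1 gene of the list was called higher, POU2F1, and 4 lower, against 16.2% and 13.7% of all genes.

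Of 24 histone chaperones and exchange factors, 4 were called higher and 5 lower at 1% O2, with a median of 0.08, shares near the 19.5% and 20.3% of all genes tested. VPS72, which carries H2A.Z, and HJURP, which loads the centromeric H3 variant, rose by 1.40 and 1.13 on the log2 scale, and ATRX, which with DAXX deposits H3.3, was at −1.25. With 32-134D these genes gave −0.88, −0.99 and 1.12, and 3 of the list were called higher and 2 lower, against 16.2% and 13.7% of all genes. Of 25 genes of DNA replication and S phase, 6 were called higher and 2 lower at 1% O2, with a median of 0.36, so that the count higher is near the share over all genes (19.5%, and 20.3% lower). With 32-134D, 1 was called higher and 6 lower, with a median of −0.24, against 16.2% and 13.7% of all genes. CDT1, MCM10 and CDC6, which license or start replication origins, gave 1.67, 1.29 and 1.23 at 1% O2 and −1.04, −0.71 and −0.75 with 32-134D. The summed S phase list was between 3566 and 3684 CPM in vehicle at 20% O2 and between 3753 and 3923 in vehicle at 1% O2, so it did not fall with the clustered genes. The share of cells in S phase was not measured in these data.

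Of 9 other histone genes with 10 or more counts that the symbol rule leaves out, 0 were called at 1% O2 in edgeR. An unadjusted p under 0.05 was found for 3 of them, against 13240 of all 22672 genes tested. With 32-134D, 1 was called lower, H2AW at −0.63 (FDR 0.0088). MACROH2A1 and MACROH2A2, the large H2A variants of silent chromatin, gave −0.23 (FDR 0.0080) and −0.25 (FDR 0.022) at 1% O2, and CENPA, the H3 variant of centromeres, 0.05. Of 19 rows for other RNAs without a poly(A) tail, 8 were at 0 in all libraries and 4 passed the count minimum. RN7SL1, with the most counts of these, measured between 6.38 and 15.4 CPM and was not called (log2 fold changes −0.36 and −0.04). SNORD3A, on 81 counts in all, gave 1.19 (FDR 0.045) and −2.02 (FDR 0.0019). Recovery of these RNAs was too low for a comparison with the clustered genes as a class.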

How the data were processed

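RNA was sequenced from 3 libraries for each of 3 groups (9 in all). The deposited values are raw counts per gene, made by the authors with STAR and featureCounts on GRCh38 (Ensembl release 100), per the labels and the study's methods; versions, the strand setting and the handling of reads that map to several places are not given in the sources used here. All 60683 rows were named genes. One gene that matches the symbol rule is not reported here. The members and gene lists were chosen with earlier results of these data known. Clustered genes are those in the H1-1 to H1-6, H2AC, H2BC, H3C and H4C series.

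Genes with counts summing to 10 or more (22672) were fitted in edgeR 4.0.16 under R 4.3.3 by its quasi-likelihood test after TMM scaling, all 9 libraries in 1 model with group as the only term, and Benjamini-Hochberg adjustment over all of them. Calls needed an FDR below 0.05 together with more than a 1.5-fold difference, as in the study, which used DESeq2. The scripts were tested on simulated data. Alternatives were DESeq2 1.42.0, other scaling, filters and thresholds, thinning to the smallest library, a replicate block, removal of a trend over length and GC content, and leaving out each library. No test was run on a class or list as a whole. CPM values are counts relative to the TMM-scaled library total. Only the sums of the marker lists and of the S phase list use the unscaled total. Replicates differed beyond counting noise in every pair (common biological coefficient of variation 10.5%), so none was counted as a duplicate. Nothing says whether the replicates came from separate cultures on separate days, and p-values measure the spread between these libraries.

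Genes named were all polyadenylated variants, the 3 clustered genes of each family with the highest mean CPM, the 5 clustered genes with the smallest p in each comparison with vehicle at 1% O2, those in a call count of 5 or fewer, and the 3 genes of each other list with the smallest p, with NPAT and SLBP; the remaining clustered genes called lower, and others given for a single value, were added after their values were seen. Motifs and stem-loops were found by exact letter matches in RefSeq and GENCODE sequence. Gene positions, overlaps and exon lengths are from GENCODE version 29 and not from the Ensembl release used for counting. The 2 can differ: H3C2 and H3C3 have counts but no entry in GENCODE version 29.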

Additional observations from a re-analysis of the deposited data

How the results depend on the processing

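Across the alternatives, 247 of 282 summary values stayed within 1.5 times the reported count or, for medians and ratios, moved by less than 1 SD between replicates. With total library size the median log2 fold change of all genes moved to −0.21 at 1% O2 and 0.17 with 32-134D, and the values of the histone genes moved with it. At 1% O2 the median of the polyadenylated variants turned from 0.13 to −0.0862 under total library size and to −0.12 with the trend over length and GC content removed, and was 0.0185 where each library had 10 counts or more and 0.0230 after thinning to the smallest library. Requiring 10 counts or more per library, which left 9 clustered genes, 8 were called lower and 0 higher, with a median of −1.54. With a fold change above 2, 0 clustered genes were called higher and 0 variants called, and with no fold threshold 5 variants. Among the named genes' differences that were called, H3C1 at 1% O2 alone changed sign, to 0.11 after thinning, which leaves fewer reads and under which H2BC4, H3C6 and H3C10 were also no longer called.

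With 32-134D against vehicle at 1% O2, the clustered genes called higher numbered 10 with total library size, 9 with no filter and 9 with the trend removed. The count lower, H2BC15, was 0 with total library size, under the filter of 10 counts per library, with the trend removed or a fold change above 2. The variants called numbered 0 with total library size or a fold change above 2 and 1 under the filter of 10 counts per library or after thinning. With total library size, H1-10 was at −0.56 and H3-3B at −0.47. Against vehicle at 20% O2, the clustered genes called lower with 32-134D numbered 2 in DESeq2, 1 with no filter, 2 after thinning and 1 with the trend removed. The variants' median there, −0.0234, was −0.13 with the trend removed, and 1 variant, H2AX, was called with no fold threshold. The cause of these changes was not tested.

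Leaving out each library in turn gave 10 to 15 clustered genes called lower and 1 higher each time at 1% O2, with a median from −1.18 to −0.89. It gave 3 to 10 higher and 0 to 2 lower with 32-134D, with a median from 0.28 to 0.77. Against vehicle at 20% O2 it gave 0 to 1 lower and 0 higher, with a median from −0.66 to −0.28. The variants called were 2 at 1% O2, 1 to 2 with 32-134D and 0 against 20% O2. Their medians ran from 0.0867 to 0.15, from −0.29 to −0.14 and from −0.0632 to 0.0364. The clustered counts relative to the variants were 0.314 to 0.357 times those at 20% O2 in vehicle at 1% O2, 1.87 to 2.38 times with 32-134D against vehicle at 1% O2, and 0.614 to 0.784 times with 32-134D against 20% O2.

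Replicate numbers shared by the groups did not pair the libraries, as the deviations of same-numbered libraries correlated between −0.144 and 0.062. With the replicate number as a block, 13 clustered genes were called lower at 1% O2 (median −1.15) and 5 higher with 32-134D (median 0.51), and of the named genes H1-2 was no longer called with 32-134D (0.58) and H2BC21 was (0.79). The 21 clustered genes with under 100 counts had a median SE of 0.85 at 1% O2, against 0.36 for the 17 with more.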

Other observations

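Of the 16 histone pseudogenes left out by their symbols, 3 had counts summing to 10 or more. H2BC20P measured 3.23, 3.93 and 4.47 CPM in vehicle at 20% O2, 2.28, 2.26 and 2.97 in vehicle at 1% O2, and 2.89, 4.01 and 2.84 with 32-134D, with log2 fold changes of −0.65 (edgeR FDR 0.018) at 1% O2 and 0.37 (FDR 0.15) with 32-134D. H2BC19P measured between 2.68 and 4.24 CPM over all libraries and gave −0.14 and −0.03. H1-9P had 20 counts in all. These symbols name H2B- and H1-like sequences, and how reads shared with the parent genes were counted is not given in the sources used here.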
